A study of Mus musculus with 6 samples.

Results

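The genes described here are 25 lysosomal hydrolases, lipid-handling proteins and membrane proteins, together with every gene of the table whose symbol begins with Atp6v0 or Atp6v1, which are subunits of the vacuolar proton pump and 1 processed pseudogene, Atp6v0c-ps2. The pump rule found 23 symbols, so that there were 48 genes among the 27131 of the table, and each of these symbols had 1 row. Messenger RNA of the LA/BC muscle (levator ani and bulbocavernosus, pelvic muscles that depend on androgen) had been sequenced from 3 wild-type mice (WT) and 3 mice labelled 113Q, all 14 weeks old. The 113Q animals are from a knock-in model of spinal and bulbar muscular atrophy (SBMA), a disease of motor neurons and muscle caused by a longer CAG repeat in the androgen receptor gene. The labels give no strain, litter or allele detail beyond WT and 113Q, and the counts do not show the length of the repeat.

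The lysosome is an acidic, membrane-bound compartment in which proteins, sugars, lipids and organelles delivered by endocytosis and autophagy are broken down. Its soluble hydrolases are made in the endoplasmic reticulum, receive a mannose 6-phosphate tag and are carried to the lysosome by sorting receptors, while the proton pump (V-ATPase) moves protons inward at the cost of ATP, through a membrane part called V0 and a cytosolic part called V1. Many lysosomal genes share promoter elements bound by the related factors TFEB, TFE3 and MITF. In muscle the pathway is known best from inherited deficiencies such as Pompe disease, in which glycogen accumulates for want of acid alpha-glucosidase, and Danon disease, in which LAMP2 is missing.

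Estimated counts summed to between 43581087 and 73873481 per library. All 10 myofibre markers were called lower in 113Q, against 18.1% of all tested genes. Their sum was 171500 to 194200 CPM (counts per 1000000, scaled with TMM library factors) in WT and 42530 to 50600 CPM in 113Q. The TMM factors were 0.768 to 0.794 in WT and 1.26 to 1.32 in 113Q. Scaling by library totals alone moved the all-gene median up by 0.719 on the log2 scale, so every change below is relative to the other genes. Libraries of WT mouse 2, 113Q mouse 2 and 113Q mouse 3 held epithelial transcripts (at least 1 CPM of Epcam). Of 9 tested epithelial markers 0 were called (0 at an unadjusted p below 0.05 in edgeR), against 34.6% of all tested genes called. Values without these 3 libraries, which leave 2 WT mice and 1 113Q mouse, are given where a call changed or a called value moved by over 1.5 times. In bulk muscle, fewer cells of a type and less RNA per cell cannot be told apart.

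Many soluble lysosomal enzymes and their cofactors, among them Ctsb, Glb1, Grn and Gusb, were higher in 113Q muscle, while the membrane glycoproteins Lamp1 and Lamp2 were lower with TMM factors and higher with library totals alone. Of the 25 named genes, all of which were tested, 14 were higher in 113Q, 2 were lower and 9 did not pass (edgeR adjusted p below 0.05). Over all 16960 tested genes, 16.5% were called higher and 18.1% lower, 34.6% in all. Of the 23 pump symbols, 18 had enough counts to be tested: 5 were higher, 0 were lower and 13 did not pass, with 6 at an unadjusted p below 0.05; DESeq2 and limma voom also called 0 pump genes lower. The changes that passed were modest in size. The rises lay between 1.22 times (Atp6v1c1) and 2.14 times (Ctsb), and the median log2 fold change was 0.39 for the 25 genes and 0.20 for the tested pump genes, against 0.01 for all tested genes. The groups of 3 did not overlap for 16 of the 25 genes in the higher direction and 2 in the lower. Over all tested genes, 25.1% of genes lay wholly higher and 24.8% wholly lower. With library totals alone all 25 genes were called higher, as were 64.9% of all tested genes. In the 2 WT and 1 113Q libraries without epithelial transcripts, where fewer of the 25 were called, their median log2 fold change was 0.38. With a term for epithelial transcripts, 16 of the 25 were higher and 2 lower. Of all tested genes, 16.8% were higher and 18.5% lower with that term.

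**Figure D1:**
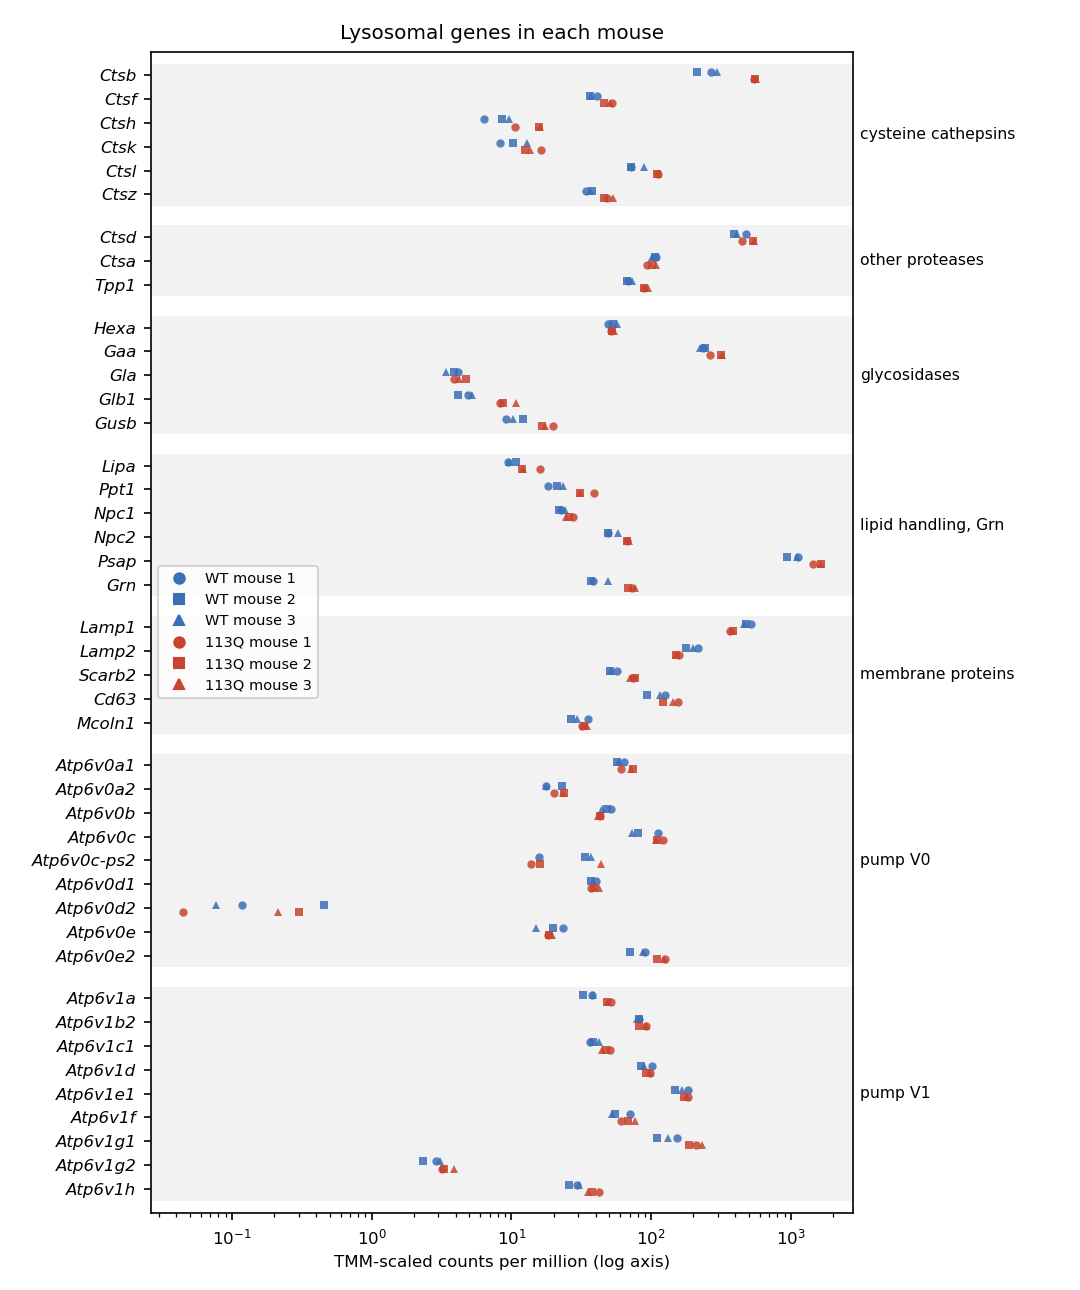
TMM-scaled CPM (log axis) of the 43 tested genes in each mouse, WT in blue above and 113Q in red below on each row, with 1 symbol per mouse number. The 113Q points of Ctsb, Grn, Glb1 and Gusb lie wholly to the right of the WT points, those of Lamp1 and Lamp2 wholly to the left, and Atp6v0d2 stays below 0.5 CPM in every mouse.

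The median coefficient of variation of the 43 tested genes was 9.996% in WT and 7.395% in 113Q. Apart from Atp6v0d2, which was barely detected, and the pseudogene Atp6v0c-ps2, the most variable were Ctsk in WT (22.9%) and Ctsh in 113Q (21.5%). Per kilobase of the longest coding transcript, the most abundant in WT was Psap at 395.8 ± 37.8 CPM per kilobase (SD, n = 3), then Lamp1 at 216.7 ± 12.6 and Ctsd at 200.7 ± 20.1, which did not differ beyond their spread. The pump subunit Atp6v1e1 was next at 125.5 ± 13.2. The least abundant of the 25 was Gla at 1.20 ± 0.111 CPM per kilobase.

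TFEB and its relatives bind a palindrome with the core CACGTG, and the promoters of lysosomal genes are known to carry it. It was therefore looked for in the RefSeq promoter windows (build GRCm38.p6, 250 bases before to 50 after the start), which were at hand for 38 of the 48 genes. The core CACGTG, which reads the same on both strands, was present in 13 of the 38 genes (34.2%), against 8.09% of all 27025 genes with a promoter and 11.2% of the tested genes with a promoter. The longer form TCACGTGA, which contains the core, was present in 7 genes (18.4%), against 1.12% of all genes and 2.04% of the tested ones. The sequences below are from the 7 genes with the longer form, followed by Glb1 and Lamp1, which among the holders of the core alone rose the most and fell; capitals mark the core or the longer form.
Ctsd, chr7:142387908-142387937, minus strand: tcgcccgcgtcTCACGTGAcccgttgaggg
Ctsa, chr2:164833749-164833778, plus strand: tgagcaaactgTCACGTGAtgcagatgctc
Mcoln1, chr8:3500462-3500491, plus strand: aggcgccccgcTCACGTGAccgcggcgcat
Gla, chrX:134601182-134601244, minus strand: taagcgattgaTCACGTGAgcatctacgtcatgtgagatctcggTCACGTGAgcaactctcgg
Atp6v1a, chr16:44139373-44139402, minus strand: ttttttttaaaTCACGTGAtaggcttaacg
Atp6v0d1, chr8:105566050-105566079, minus strand: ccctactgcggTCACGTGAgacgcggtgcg
Atp6v0e, chr17:26676387-26676416, plus strand: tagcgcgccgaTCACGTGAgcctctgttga
Glb1, chr9:114401018-114401047, plus strand: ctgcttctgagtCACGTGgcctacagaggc
Lamp1, chr8:13159088-13159160, plus strand: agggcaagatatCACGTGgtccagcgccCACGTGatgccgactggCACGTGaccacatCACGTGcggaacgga

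Lamp1 held 4 copies of the core within the 73 bases before its start, and Gla held 2 copies of the longer form within 63 bases. Ctsa also held 2 copies of the longer form, of which 1 is shown. Of the 7 genes with the longer form, only Atp6v1a passed the test between 113Q and WT, as higher; the other 6 (Ctsd, Ctsa, Mcoln1, Gla, Atp6v0d1 and Atp6v0e) did not pass. Of the 13 genes with the core, 5 were higher, 1 was lower and 7 did not pass. Of all 38 genes with a promoter, 14 were higher and 2 lower. Among all 1254 tested genes with the core in their promoter, 19.3% were called higher and 18.3% lower. Among all 228 tested genes with the longer form in their promoter, 21.9% were called higher and 13.2% lower, and their median log2 fold change was 0.07. A match is a description of these letters, and no binding was measured here.

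Cysteine cathepsins are the papain-like proteases of the lysosome. All 6 had a log2 fold change above 0, as did 8633 of all 16960 tested genes. Of the 6, 5 passed as higher, against 16.5% of all tested genes. Cathepsin B (Ctsb, chr14:63122462-63145923), an endopeptidase that also removes dipeptides, was at 269, 211 and 295 CPM in WT mice 1, 2 and 3 and at 539.6, 552 and 564 CPM in 113Q mice 1, 2 and 3. The lowest 113Q mouse was well above the highest WT mouse, a rise of 1.10 ± 0.12 on the log2 scale (the value after ± beside a log2 change is its SE; edgeR adjusted p = 0.000378). It was the only one of the 43 tested genes to rise more than 2 times, and the rise was 0.94 in the libraries without epithelial transcripts (edgeR adjusted p = 0.00342). An exon of Ctsb shares 774 bases with Fdft1 on the other strand; Fdft1 itself had a log2 fold change of -0.23 and did not pass (edgeR adjusted p = 0.129).

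Cathepsin L (Ctsl), another endopeptidase, was at 72.2, 71.2 and 88.7 CPM in the WT mice, against 112, 111 and 113 CPM in the 113Q mice. The 113Q mice were almost identical and all above WT (log2 fold change 0.53 ± 0.10, edgeR adjusted p = 0.00403; 0.47 and 0.0852 without the epithelial libraries). Cathepsin H (Ctsh), an aminopeptidase, was at 6.31, 8.53 and 9.57 CPM in the WT mice, against 10.6, 15.8 and 15.9 CPM in the 113Q mice. Its log2 fold change of 0.79 ± 0.21 passed (edgeR adjusted p = 0.0194), with 113Q mouse 1 the lowest of its group. The call of Ctsh was lost without WT mouse 1 (edgeR adjusted p = 0.0545) and without 113Q mouse 2 or 3 (0.0716 and 0.0712), and the change was 0.41 in the libraries without epithelial transcripts (0.394).

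Cathepsin Z (Ctsz), a carboxypeptidase, was at 34.3, 37.7 and 36.5 CPM in the WT mice, against 48.4, 45.8 and 53.0 CPM in the 113Q mice. Cathepsin F (Ctsf) was at 41.1, 36.2 and 37.0 CPM in the WT mice, against 52.8, 45.6 and 50.8 CPM in the 113Q mice. The groups did not overlap for either protease, and the log2 fold changes were 0.44 ± 0.08 for Ctsz (edgeR adjusted p = 0.00485) and 0.39 ± 0.09 for Ctsf (edgeR adjusted p = 0.0114). Neither passed without the epithelial libraries, at 0.45 for Ctsz and 0.435 for Ctsf (edgeR adjusted p = 0.0599 and 0.0698). Cathepsin K (Ctsk), a collagen-degrading protease known from osteoclasts, overlapped between the groups, with 8.23, 10.2 and 13.0 CPM in the WT mice, against 16.2, 12.5 and 13.7 CPM in the 113Q mice. It did not pass (log2 fold change 0.43 ± 0.18, edgeR adjusted p = 0.1), although it did without WT mouse 3 (0.61, edgeR adjusted p = 0.0332).

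Macrophages are rich in cathepsins, and their markers were read beside these values. The sum of 15 macrophage markers was 128.5 to 173.5 CPM in WT, against 149.2 to 162.3 CPM in 113Q, so that the 113Q range lay within the WT range. Of the 15, 2 were called higher, Aif1 and Mpeg1, and 13 did not pass (13.3% called, against 34.6% of all tested genes). The sum of 6 osteoclast markers was 3.98 to 5.08 CPM in WT, against 6.18 to 9.04 CPM in 113Q. Of the 6, 2 were called higher (Calcr and Tnfrsf11a), and Oscar and Mmp9 did not pass. That was 50% of the tested osteoclast markers called, against 34.6% of all tested genes. Dcstamp, at or below 0.115 CPM in every library, and Ocstamp were not tested. Ocstamp was at 0.118, 0.151 and 0.212 CPM in the WT mice, against 0.067, 0.0783 and 0 CPM in the 113Q mice. The sum of 10 fibroblast markers overlapped, with 2060 to 3481 CPM in WT, against 3062 to 3734 CPM in 113Q. Of these 10, 0 passed (3 at an unadjusted p below 0.05 in edgeR), against 34.6% of all tested genes called. Sums of smooth muscle and pericyte markers (211.7 to 691.5 CPM in WT, 1138 to 2526 CPM in 113Q) and of satellite cell markers (145.7 to 181.6 and 225.1 to 240.1 CPM) lay higher in 113Q without overlap. Of these, 1 of 8 and 4 of 6 markers were called higher, against 16.5% of all tested genes. Acta2, Myh11, Tagln and Cnn1 lay wholly higher. Lmod1, Pdgfrb, Rgs5 and Cspg4 overlapped and did not pass (log2 fold changes 0.66, -0.20, 0.10 and -0.006). Itga7, the most abundant satellite cell marker, overlapped and did not pass (0.20). Endothelial markers lay lower (411.1 to 526.3 CPM in WT, 290.0 to 299.6 CPM in 113Q). Of these, 8 of 8 were called lower, against 18.1% of all tested genes. The part of these cell types in the lysosomal values was not tested.

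**Figure D2:**
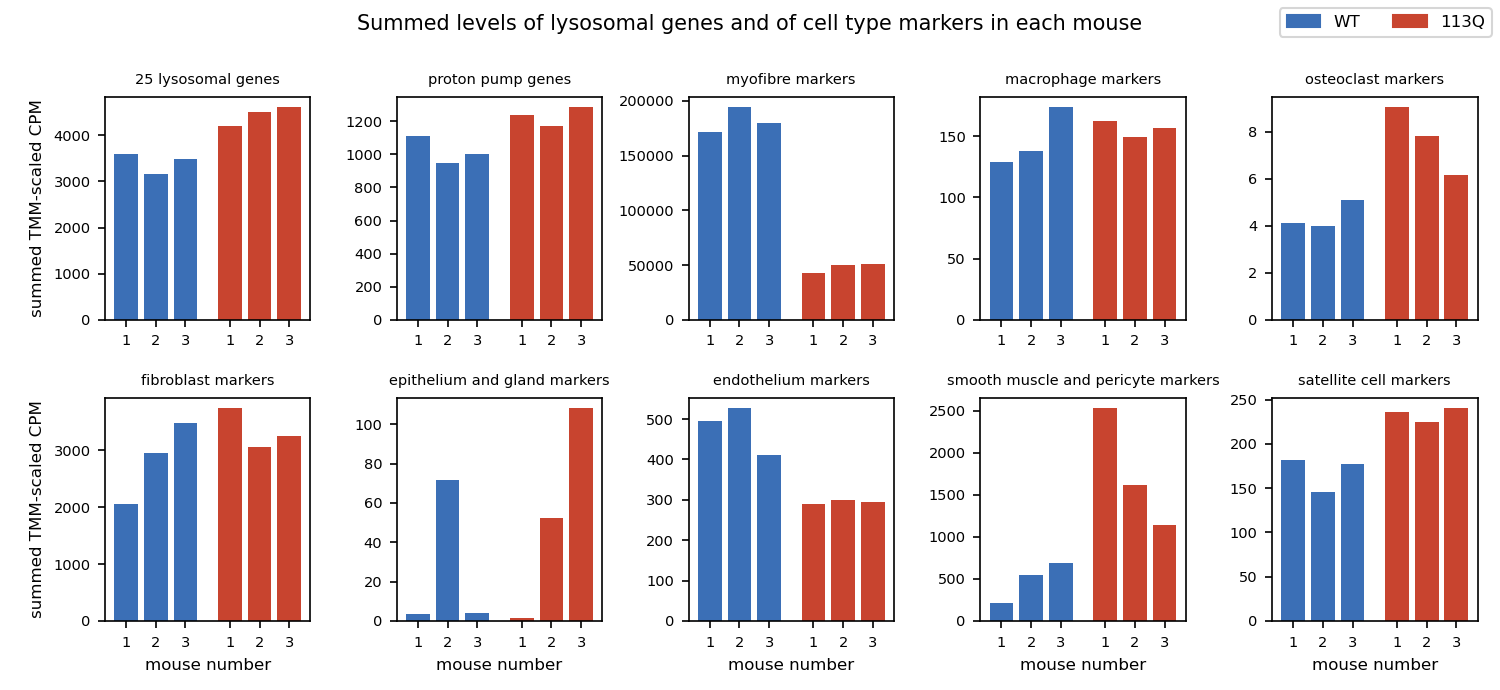
Summed TMM-scaled CPM in each mouse (WT in blue, 113Q in red; 1 bar per mouse, each panel with its own axis from 0) of the 25 lysosomal genes, of the proton pump genes and of marker lists of cell types. The 25 genes sum to 3153 to 3586 CPM in WT, against 4206 to 4611 CPM in 113Q, macrophage markers overlap between the groups, and epithelial markers are high in WT mouse 2 and 113Q mice 2 and 3.

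Of the other proteases, 1 of 3 was higher, against 16.5% of all tested genes. Tripeptidyl peptidase 1 (Tpp1), which clips tripeptides from the ends of proteins, was at 68.0, 66.6 and 73.3 CPM in the WT mice, against 89.0, 88.9 and 94.3 CPM in the 113Q mice. It was higher in every 113Q mouse than in any WT mouse (log2 fold change 0.39 ± 0.07, edgeR adjusted p = 0.0049), but did not pass without the epithelial libraries (0.33, edgeR adjusted p = 0.135). Cathepsin D (Ctsd), the main aspartic protease of the lysosome, was at 475, 394 and 411 CPM in the WT mice, against 446, 535 and 543 CPM in the 113Q mice. The groups overlapped and it did not pass (log2 fold change 0.25, 95% interval -0.0032 to 0.51, edgeR adjusted p = 0.116); without 113Q mouse 1 it did (0.34, edgeR adjusted p = 0.0493), and in voom (0.31, adjusted p = 0.0326), while without the epithelial libraries the change was 0.01 (edgeR adjusted p = 0.973). Cathepsin A (Ctsa), a serine carboxypeptidase that also protects beta-galactosidase and neuraminidase, was at 101 to 108 CPM across WT mice, against 94.1 to 109 CPM across 113Q mice, with a log2 fold change of -0.05 (-0.24 to 0.14).

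Among the glycosidases, 3 of 5 were higher, against 16.5% of all tested genes. Beta-galactosidase (Glb1), which removes galactose from gangliosides and keratan sulfate, was at 4.86, 4.13 and 5.22 CPM in the WT mice, against 8.33, 8.69 and 10.8 CPM in the 113Q mice. Beta-glucuronidase (Gusb), an enzyme of glycosaminoglycan breakdown, was at 9.21, 12.1 and 10.2 CPM in the WT mice, against 19.96, 16.4 and 17.2 CPM in the 113Q mice. Neither overlapped between the groups: Glb1 rose by 0.97 ± 0.17 on the log2 scale (edgeR adjusted p = 0.00273) and Gusb by 0.76 ± 0.14 (edgeR adjusted p = 0.00329). Glb1 did not pass without the epithelial libraries (0.72, edgeR adjusted p = 0.097). Glb1 shares 165 bases of exon with Tmppe on the same strand, so some fragments of these genes may have been divided between them.

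Acid alpha-glucosidase (Gaa, chr11:119267887-119285454), the enzyme that degrades glycogen in the lysosome, was the most abundant of the 5 glycosidases in WT at 64.3 ± 2.90 CPM per kilobase (SD, n = 3). It was at 236, 243 and 222 CPM in the WT mice, against 263, 318 and 323 CPM in the 113Q mice. The groups did not overlap, but 113Q mouse 1 was close to WT. The log2 fold change was 0.37 ± 0.10 (edgeR adjusted p = 0.0216), and the call was lost without WT mouse 1 or 3 (0.0512 and 0.0805) and without 113Q mouse 2 or 3 (0.0767 and 0.0801). In the libraries without epithelial transcripts, whose single 113Q library is mouse 1, it was 0.20 (edgeR adjusted p = 0.37). The alpha subunit of beta-hexosaminidase (Hexa) was at 48.9 to 56.9 CPM across WT mice, against 51.8 to 54.1 CPM across 113Q mice, with a log2 fold change of -0.01 (-0.20 to 0.17). Alpha-galactosidase A (Gla) was at 3.43 to 4.12 and 3.91 to 4.75 CPM, a log2 fold change of 0.17 (-0.22 to 0.56).

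The genes of lipid handling and progranulin lay higher in every 113Q mouse than in any WT mouse for all 6, and 4 of them passed the test. Over all tested genes, 25.1% lay wholly higher and 16.5% were called higher. Prosaposin (Psap, chr10:60277627-60302597), the precursor of the saposins that present sphingolipids to their hydrolases, has been given above as the most abundant in WT per kilobase. It was at 1116, 936 and 1103 CPM in the WT mice, against 1440.3, 1634 and 1649 CPM in the 113Q mice, a rise of 0.58 ± 0.10 on the log2 scale (edgeR adjusted p = 0.0035). Without the epithelial libraries Psap was 0.38 higher and did not pass (edgeR adjusted p = 0.0871). Progranulin (Grn), a glycoprotein cleaved into granulins in the lysosome, was at 38.5, 36.8 and 49.0 CPM in the WT mice, against 72.5, 68.7 and 77.0 CPM in the 113Q mice. It rose 1.75 times (log2 fold change 0.81 ± 0.12, edgeR adjusted p = 0.0012), and by 0.73 in the libraries without epithelial transcripts (edgeR adjusted p = 0.0277).

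Palmitoyl-protein thioesterase 1 (Ppt1), which removes fatty acids from proteins, was at 18.2, 21.2 and 23.2 CPM in the WT mice, against 39.0, 30.8 and 31.2 CPM in the 113Q mice. Ppt1 was 1.61 times higher (log2 fold change 0.69 ± 0.13, edgeR adjusted p = 0.00436). It shares 129 bases of exon with Cap1 on the other strand, which was also higher in 113Q (log2 fold change 0.46, edgeR adjusted p = 0.00709). NPC2 (Npc2), a soluble carrier that hands cholesterol to the membrane protein NPC1, was at 49.2, 48.9 and 58.3 CPM in the WT mice, against 66.7, 67.3 and 69.3 CPM in the 113Q mice (log2 fold change 0.38 ± 0.09, edgeR adjusted p = 0.0117; 0.31 and 0.205 without the epithelial libraries). Its partner Npc1 was at 22.7, 21.9 and 24.3 CPM in the WT mice, against 27.5, 25.9 and 24.7 CPM in the 113Q mice and did not pass (0.18 ± 0.09, edgeR adjusted p = 0.149). Acid lipase (Lipa), which hydrolyses cholesteryl esters, was at 9.39, 10.7 and 9.66 CPM in the WT mice, against 16.0, 11.95 and 12.01 CPM in the 113Q mice. Lipa missed the threshold (0.43 ± 0.15, edgeR adjusted p = 0.0516), and passed in DESeq2 (adjusted p = 0.037), with other filters (0.0487 and 0.0433), with the epithelial term (0.0473) and without the epithelial libraries (0.75, edgeR adjusted p = 0.0395).

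The membrane proteins did not move together. LAMP1 and LAMP2 are the heavily glycosylated proteins that line the inside of the lysosomal membrane, and LAMP2 also serves chaperone-mediated autophagy. Lamp1 (chr8:13159161-13175338) was at 515, 474 and 461 CPM in the WT mice, against 366, 383 and 381 CPM in the 113Q mice. Lamp2 (chrX:38401357-38456454) was at 215, 176 and 198 CPM in the WT mice, against 159, 151 and 151.5 CPM in the 113Q mice. Every 113Q mouse was below every WT mouse for both, and each fell by 1.28 times, with log2 fold changes of -0.36 ± 0.08 for Lamp1 (edgeR adjusted p = 0.00991) and -0.35 ± 0.09 for Lamp2 (0.0183), but 0.36 and 0.37 with library totals alone. The call of Lamp2 was lost without WT mouse 3 (edgeR adjusted p = 0.0552) and without 113Q mouse 2 or 3 (0.0727 and 0.0731). Without the epithelial libraries the changes were -0.41 and -0.38, but neither passed (0.0895 and 0.112).

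LIMP-2 (Scarb2), an abundant membrane protein of the lysosome, went the other way. It was at 57.0, 50.4 and 51.9 CPM in the WT mice, against 74.3, 76.4 and 70.6 CPM in the 113Q mice, a rise of 0.47 ± 0.08 on the log2 scale (edgeR adjusted p = 0.0025; 0.45 and 0.0569 without the epithelial libraries). The tetraspanin Cd63 overlapped between the groups, at 92.6 to 125 CPM across WT mice, against 121 to 156 CPM across 113Q mice (log2 fold change 0.34 ± 0.13, edgeR adjusted p = 0.0875), and passed with the term for epithelial transcripts (0.45, edgeR adjusted p = 0.0114) and with a replicate block (0.0271). The calcium channel Mcoln1 was at 26.9 to 35.3 and 32.2 to 34.5 CPM, with a log2 fold change of 0.12 (-0.13 to 0.37).

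**Figure D3:**
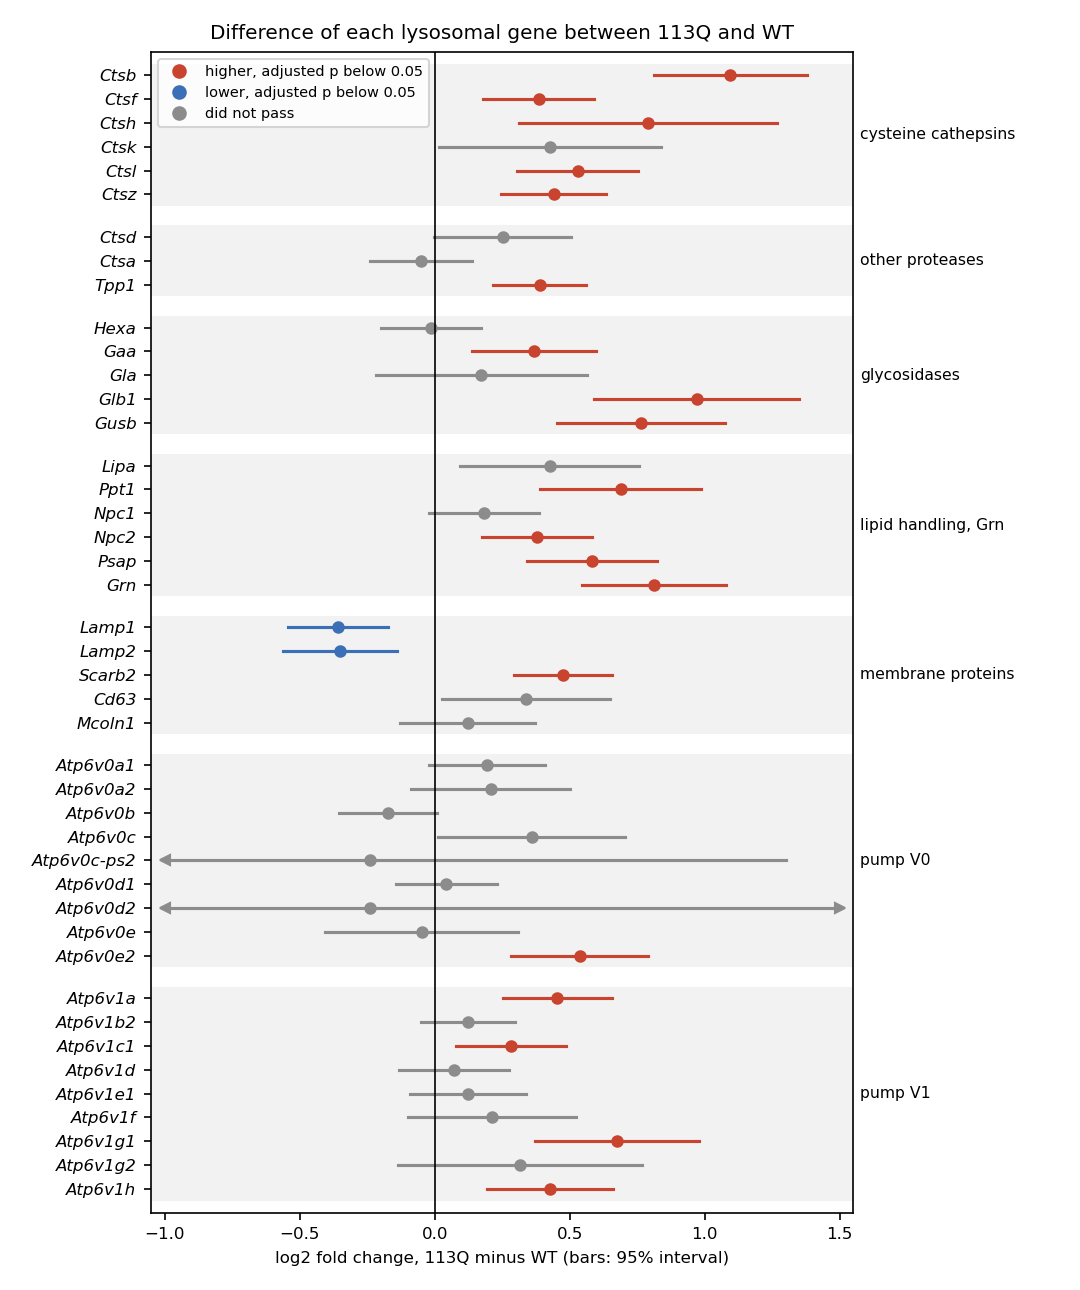
Log2 fold change of each of the 43 tested genes, 113Q minus WT, with bars for the 95% interval; red passed as higher, blue as lower, grey did not pass, and arrowheads mark bars cut at the axis. All cysteine cathepsins and lipid genes lie to the right of 0 while Lamp1 and Lamp2 lie to the left; with library totals alone instead of TMM factors these 2 also lie to the right.

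In the proton pump, 4 of the 9 tested genes of the cytosolic V1 part were higher in 113Q (44.4%), and 1 of 9 in the membrane part V0 (11.1%). Over all tested genes, 16.5% were called higher. All 9 V1 genes had log2 fold changes above 0, as did 5 of the 9 V0 genes and 8633 of all 16960 tested genes. The 4 V0 genes below 0 include the pseudogene Atp6v0c-ps2 and the barely detected Atp6v0d2. The difference between the parts was not tested. The V1 part holds the catalytic head, in which A and B subunits alternate, and the stalks that connect it to the membrane. The A subunit gene Atp6v1a, where ATP is hydrolysed, was at 37.8, 32.6 and 38.4 CPM in the WT mice, against 51.8, 48.3 and 48.8 CPM in the 113Q mice, wholly above WT (log2 fold change 0.45 ± 0.09, edgeR adjusted p = 0.00508; 0.44 and 0.0575 without the epithelial libraries). Its partner of the head, Atp6v1b2, was at 81.6, 81.5 and 79.5 CPM in the WT mice, against 91.6, 81.8 and 91.1 CPM in the 113Q mice. The groups for Atp6v1b2 touched without overlapping, and it did not pass (0.12, -0.05 to 0.30, edgeR adjusted p = 0.249).

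The G subunit gene Atp6v1g1, part of the peripheral stalks, changed the most of the pump genes. It was at 152, 109.7 and 133 CPM in the WT mice, against 209.9, 188 and 232 CPM in the 113Q mice, higher in each (log2 fold change 0.68 ± 0.13, edgeR adjusted p = 0.00534). Its relative Atp6v1g2, known from neurons, was at 2.90, 2.32 and 3.10 CPM in the WT mice, against 3.17, 3.31 and 3.87 CPM in the 113Q mice and did not pass (0.32 ± 0.20, edgeR adjusted p = 0.255). Subunit H (Atp6v1h), which holds the detached head inactive, was at 29.5, 25.8 and 30.3 CPM in the WT mice, against 42.2, 37.5 and 35.3 CPM in the 113Q mice (0.43 ± 0.10, edgeR adjusted p = 0.0126). Subunit C (Atp6v1c1), which leaves when the pump comes apart, was at 36.7, 38.6 and 42.1 CPM in the WT mice, against 51.1, 47.5 and 44.3 CPM in the 113Q mice (0.28 ± 0.09, edgeR adjusted p = 0.0389). The call of Atp6v1c1 was lost without WT mouse 1 or 2 (0.109 and 0.0837), without 113Q mouse 1 or 2 (0.108 and 0.0983), in voom (0.0714), with a replicate block (0.101) and without the epithelial libraries (0.124). The remaining V1 genes, Atp6v1d, Atp6v1e1 and Atp6v1f, overlapped between the groups and had log2 fold changes of 0.07, 0.12 and 0.21.

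In the V0 part the gene that rose encodes the small subunit e2. Atp6v0e2 was at 89.5, 70.1 and 87.2 CPM in the WT mice, against 126, 109 and 123 CPM in the 113Q mice (log2 fold change 0.54 ± 0.11, edgeR adjusted p = 0.00659). The other e subunit gene, Atp6v0e, was at 14.9 to 23.5 CPM across WT mice, against 18.3 to 19.4 CPM across 113Q mice (-0.05, -0.41 to 0.31). Per kilobase, Atp6v0e2 made up 85.7%, 84.7% and 90.2% of the e subunit transcripts in WT and 91.6%, 90.2% and 90.8% in 113Q. The proteolipid gene Atp6v0b was lower in each 113Q mouse (51.4, 48.5 and 44.8 CPM in the WT mice, against 43.2, 43.3 and 41.9 CPM in the 113Q mice), but did not pass (-0.17 ± 0.08, edgeR adjusted p = 0.127), and its log2 fold change was 0.55 with library totals alone.

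The c ring gene Atp6v0c was at 111, 80.5 and 73.5 CPM in the WT mice, against 121, 109.9 and 109 CPM in the 113Q mice. WT mouse 1 overlapped with 113Q, and Atp6v0c passed only without that mouse among the single mice left out (0.55, edgeR adjusted p = 0.00451) against 0.36 and an adjusted p = 0.1 with all mice; voom also called it (adjusted p = 0.0487). The pseudogene Atp6v0c-ps2 spread from 13.8 to 43.4 CPM over the 6 libraries and overlapped between the groups, and counts of such a copy and its parent cannot be separated with certainty. The a subunits anchor the pump in particular membranes. Of their genes, Tcirg1 lies outside the symbol rule and was left out of the shares given here. Atp6v0a1 was at 57.3 to 63.9 CPM across WT mice, against 61.1 to 73.7 CPM across 113Q mice. It made up 80.4 ± 3.15% in WT and 80.1 ± 0.416% in 113Q (SD, n = 3) of the remaining a subunit transcripts per kilobase. It did not pass (0.19 ± 0.09, edgeR adjusted p = 0.144), but did without 113Q mouse 1 (0.28, edgeR adjusted p = 0.0441) and in voom (adjusted p = 0.0489), while without the epithelial libraries it was at -0.01. Atp6v0a2 and Atp6v0d1 had log2 fold changes of 0.21 and 0.04 and did not pass.

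Of the genes found by the symbol rule, the isoforms known from kidney, epididymis, testis or osteoclasts were near the detection limit. Tcirg1, an a subunit gene known from osteoclasts, lies outside that rule and was well detected. It was at 21.5, 18.4 and 17.8 CPM in the WT mice, against 21.4, 23.2 and 20.8 CPM in the 113Q mice. Tcirg1 did not pass (log2 fold change 0.18, edgeR adjusted p = 0.221). Atp6v1e2 had 0 counts in every library, where 3 counts correspond to 0.0322 to 0.0888 CPM. Atp6v0a4, Atp6v1c2 and Atp6v1g3 stayed at or below 0.324, 0.17 and 0.118 CPM and were not tested. Atp6v1b1, also not tested, was at 0, 0.151 and 0.0385 CPM in the WT mice, against 0, 0.805 and 0.654 CPM in the 113Q mice. Atp6v0d2 was at 0.118, 0.453 and 0.077 CPM in the WT mice, against 0.0447, 0.302 and 0.214 CPM in the 113Q mice. For Atp6v1b1 and Atp6v0d2 the libraries with the highest values were WT mouse 2 and 113Q mice 2 and 3, the same that held Epcam (3.83, 8.29 and 10.2 CPM), whereas Atp6v0a4 was highest in 113Q mouse 1 (0.324 CPM), where Epcam was at 0.

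A wider list of 85 lysosomal genes, not among the 48, was read in the same fit. Of these, 82 were tested: 30 were higher (36.6%), 4 were lower (4.88%) and 48 did not pass, with a median log2 fold change of 0.20. Over all tested genes, 16.5% were called higher and 18.1% lower. Other hydrolases and activators were higher for 15 of 32 and lower for 1 (50% called, against 34.6% of all tested genes). The largest rises were in arylsulfatase B (Arsb), a glycosaminoglycan sulfatase, at 4.99 ± 0.595 CPM in the WT mice, against 13.4 ± 2.17 CPM in the 113Q mice (SD, n = 3; edgeR adjusted p = 0.000391), and legumain (Lgmn), the asparaginyl endopeptidase that matures cathepsins. Lgmn was at 66.2, 58.1 and 75.6 CPM in the WT mice, against 159, 155 and 158 CPM in the 113Q mice, 2.36 times higher (edgeR adjusted p = 8.79e-05). The acid nuclease Dnase2a rose 2.03 times and the sulfatase Ids 1.48 times (edgeR adjusted p = 0.00176 and 0.00218; 0.065 for Dnase2a without the epithelial libraries). Cathepsin C (Ctsc), named after its value was seen as the only hydrolase called lower, went from 28.8 ± 6.09 to 19.1 ± 2.23 CPM (log2 fold change -0.59, edgeR adjusted p = 0.0254; 0.12 with library totals alone). That call was lost without WT mouse 1 or 3 (0.083 and 0.0802) and without 113Q mouse 1 or 3 (0.0934 and 0.0952), with a replicate block (0.0764) and with the epithelial term (0.0641). Without the epithelial libraries Ctsc was at -0.87 and passed (edgeR adjusted p = 0.00905).

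Of 6 genes of mannose 6-phosphate tagging and sorting, 3 were higher and 3 did not pass (50% called, against 34.6% of all tested genes). Sortilin (Sort1), which sorts prosaposin and other cargo without the tag, was at 44.7, 44.2 and 49.9 CPM in the WT mice, against 111, 136 and 121 CPM in the 113Q mice, 2.65 times higher (edgeR adjusted p = 4.35e-05). The mannose 6-phosphate receptors M6pr and Igf2r, named after their values were seen, were 1.27 and 1.30 times higher (edgeR adjusted p = 0.00668 and 0.0165; 0.0656 for Igf2r without 113Q mouse 2). Neither passed without the epithelial libraries (0.125 for M6pr and 0.101 for Igf2r). Of 16 other membrane proteins, 8 were higher and 0 lower (50% called), with 8 at an unadjusted p below 0.05 in edgeR. Laptm4b, a membrane protein of late endosomes, was at 27.6, 25.5 and 28.2 CPM in the WT mice, against 73.0, 74.9 and 68.7 CPM in the 113Q mice (edgeR adjusted p = 1.71e-05). The chloride exchanger Clcn7 and its partner Ostm1 rose 1.32 and 1.64 times (edgeR adjusted p = 0.00359 and 0.00171; 0.138 for Clcn7 without the epithelial libraries).

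Of 11 tested pump accessory and assembly factors, among which the a subunit gene Tcirg1 was counted, 3 were higher and 0 lower. That was 27.3% called, against 34.6% of all tested genes. Dmxl2, a part of the complex that reassembles V1 with V0, rose 2.06 times (edgeR adjusted p = 0.000648), and Atp6ap2, an accessory subunit of V0, rose 1.56 times (edgeR adjusted p = 0.00123). Of 3 cathepsin inhibitors, Cst6, a cystatin that blocks legumain, fell (edgeR adjusted p = 0.00192), with a log2 fold change of -1.16 that was -0.44 with library totals alone (adjusted p = 0.0554). Cstb, the cytosolic stefin B, named after its value was seen, was 0.37 higher (edgeR adjusted p = 0.037), and its call was lost with any 1 mouse left out except WT mouse 3 (edgeR adjusted p 0.0524 without 113Q mouse 2 to 0.138 without 113Q mouse 3; 0.0964 without WT mouse 1, 0.0812 without WT mouse 2, 0.0703 without 113Q mouse 1). It was also lost in voom (0.0643), with a replicate block (0.0588), with the epithelial term (0.0531) and without the epithelial libraries (0.315). Cst3, the abundant secreted cystatin C, had a log2 fold change of -0.07.

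**Figure D4:**
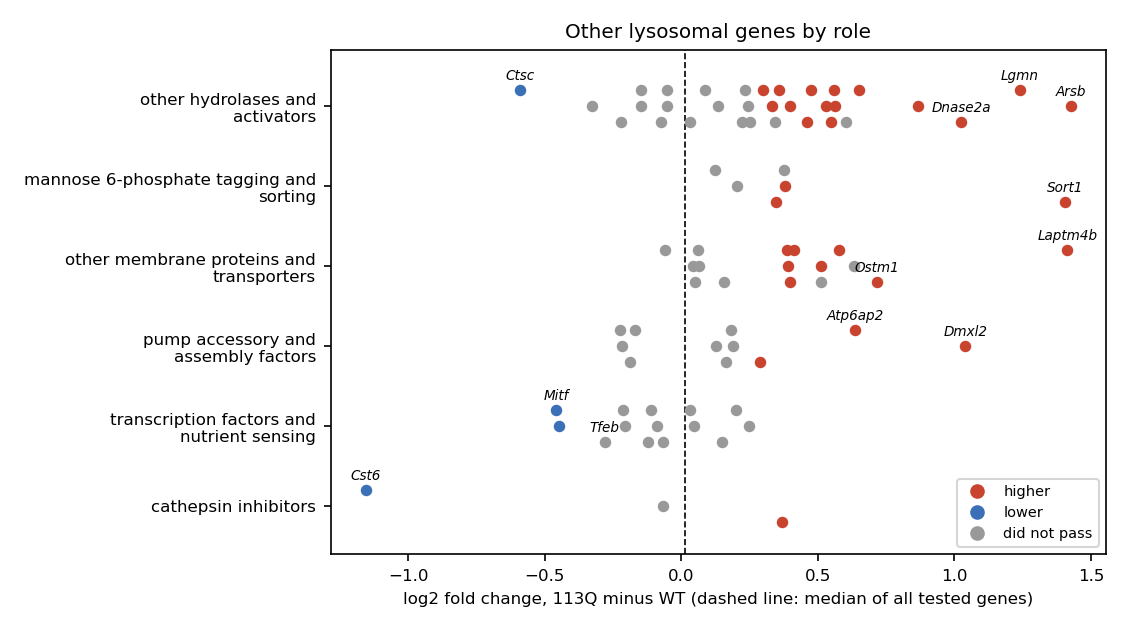
Log2 fold change, 113Q minus WT, of the 82 tested lysosomal genes outside the 48, by role (points are spread vertically only for legibility; red passed as higher, blue as lower, grey did not pass; the dashed line is the median of all tested genes). Hydrolases, sorting receptors and membrane proteins lie mostly to the right of the line, and Mitf and Cst6 to the left; with library totals alone Mitf lies above 0.

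Of the regulating factors Tfeb, Tfe3, Mitf and Zkscan3, only Mitf passed the test. Tfeb was at 152, 137 and 126 CPM in the WT mice, against 89.1, 130.1 and 123 CPM in the 113Q mice. The groups overlapped, with 113Q mouse 1 the lowest, and Tfeb did not pass (log2 fold change -0.28, -0.62 to 0.06, edgeR adjusted p = 0.177; 0.44 with library totals alone). Set against WT mice 1 and 3 only, 113Q mouse 1, the single 113Q library with no epithelial transcripts, gave Tfeb a value of -0.643 (edgeR adjusted p = 0.0305). Tfe3 was at 18.5 ± 2.14 and 18.9 ± 0.31 CPM and the repressor Zkscan3 at 28.97 ± 1.18 and 27.7 ± 2.19 CPM (SD, n = 3), with log2 fold changes of 0.03 and -0.07. Mitf was at 17.0, 17.4 and 17.4 CPM in the WT mice, against 13.6, 12.02 and 12.1 CPM in the 113Q mice, lower in every 113Q mouse (log2 fold change -0.46 ± 0.10, edgeR adjusted p = 0.00816), but 0.26 with library totals alone. Without the epithelial libraries Mitf was at -0.34 and did not pass (edgeR adjusted p = 0.262). This group of 14 genes includes nutrient sensing at the lysosomal surface. Of the 14, 0 were higher, 2 were lower and 12 did not pass, with 3 at an unadjusted p below 0.05 in edgeR. That was 14.3% called, against 34.6% of all tested genes. The other gene that passed was Lamtor3, a subunit of the Ragulator scaffold, named after its value was seen (-0.45, edgeR adjusted p = 0.00565, or 0.0683 without the epithelial libraries; its log2 fold change was 0.27 when scaled by library totals). Transcript levels do not show where such factors are in the cell.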

How the data were processed

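The deposited values are estimated counts for 27131 genes in 6 libraries; the submitters' processing notes name the build mm10 and, without roles, TopHat2 2.0.9, Bowtie2 2.1.0, cutadapt, FastQC 0.10.0, Cufflinks and Cuffdiff 2.1.1, and the deposited table's name says Cuffdiff raw counts. No source used here gives the annotation or whether strand was used, so fragments of overlapping genes cannot be told apart. Per the labels' protocols, Trizol RNA went into a TruSeq library kit. Estimated counts were rounded (5.38% to 5.96% of values were fractional).

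Groups came from the labels, 3 mice each, with no batch named. All genes entered 1 fit of 113Q minus WT (R 4.3.3, edgeR 4.0.16): filterByExpr (minimum count 10), TMM factors, robust quasi-likelihood F test, two-sided, Benjamini-Hochberg over 16960 genes, threshold 0.05. Standard errors are the log2 fold change over the square root of F, and 95% intervals use the t quantile of its degrees of freedom. Alternatives used DESeq2 1.42.0, limma 3.58.1 voom, other scalings, filters and thresholds, each mouse left out, a replicate block and epithelial libraries. The scripts were tested on simulated data with known changes. There, 81, 56 and 63 genes were changed by 1.5, 2 and 4 times, and 16650 genes were tested. Of these changes, 33.3%, 51.8% and 88.9% were recovered. Of 124 calls, 12 were false (9.68%). Far fewer genes were changed there than the 34.6% called in the data, so these rates need not hold for the data. A gene that did not pass is not shown to be unchanged.

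The genes and lists were chosen with earlier results of these data known. Each of the 48 genes is accounted for, with its value in every mouse where it passed or the groups did not overlap; of the wider list, up to 12 passing genes of smallest p and 4 factors are named, of which 1 is not reported here. Names not in the table were matched by RefSeq synonyms. Coordinates and transcript lengths are from GENCODE M21 (GRCm38, the assembly of mm10).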

Additional observations from a re-analysis of the deposited data

How the results depend on the processing

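Counts by setting are given for the 25 genes, the pump, the wider lysosomal list and all genes, in that order. With library totals alone, 25, 16, 77 and 11015 were higher and 0, 0, 0 and 710 lower. At an adjusted p below 0.01, 1 of the 25 was lower, 3 pump and 15 wider-list genes were higher, and 1462 of all genes were higher and 1962 lower. In only the libraries without epithelial transcripts, 5 of the 25 and 9 of the wider list were higher, 0 of the 25 lower, and 1300 of all genes were higher and 1827 lower; this setting has fewer samples, and 113Q is 1 mouse, assumed to vary like the WT mice. With each mouse left out in turn, 12 to 15, 4 to 6, 20 to 27 and 2004 to 2559 were higher and 1 to 2, 0, 3 to 4 and 2312 to 2843 lower.

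Whether the shared mouse numbers pair the samples cannot be decided from 3 mice per group. The deviations of same-numbered WT and 113Q mice correlated at 0.198, 0.236 and -0.274. Those of differently numbered mice correlated at -0.436 (WT mouse 2 with 113Q mouse 1) to 0.379 (WT mouse 2 with 113Q mouse 3). With a replicate block, 15 of the 25, 4 pump genes and 19 of the wider list (30 without it) were higher. Of all tested genes, 2154 were higher with it (2791 without it).

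Of the 21 called among the 48 genes, 21 kept their call in DESeq2 and 20 in voom, 19 with library totals alone and 7 without the epithelial libraries. Signs reversed with library totals alone for Ctsa (0.67), Hexa (0.71), Lamp1 (0.36), Lamp2 (0.37), Atp6v0b (0.55), Atp6v0c-ps2 (0.47), Atp6v0d2 (0.47), Atp6v0e (0.67), Tfeb (0.44), Mitf (0.26), Zkscan3 (0.66), Ctsc (0.12) and Lamtor3 (0.27), as the scaling itself moves all genes up. The other reversals were of uncalled values, and their cause was not tested: Hexa with no filter (0.00665), Atp6v0d2 (0.54) and Atp6v0e (0.0945) in voom, and Mcoln1 (-0.00627), Atp6v0a1 (-0.0104), Atp6v0d1 (-0.0701), Atp6v1f (-0.0216) and Zkscan3 (0.018) without the epithelial libraries. With 1 mouse left out, the values ranged from -0.0982 to 0.00706 for Ctsa, -0.0709 to 0.0376 for Hexa, -0.95 to 0.0466 for Atp6v0c-ps2, -0.0045 to 0.0909 for Atp6v0d1, -0.741 to 0.957 for Atp6v0d2, -0.21 to 0.107 for Atp6v0e and -0.0573 to 0.106 for Tfe3. Depth limits Atp6v0d2 and the 5 untested pump isoforms.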
